A study of Mus musculus with 6 samples.

Results

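The endoderm factors Hnf4a, Hnf4g, Foxa1, Foxa2, Foxa3 and Onecut2 were followed through ATAC-seq data, which count cuts by a transposase in open chromatin and so measure accessibility, not expression. A peak was assigned to a factor when the deposited annotation named that gene as the owner of the nearest transcription start site (TSS) and the distance was at most 100 kb. By this rule 35 of 156733 consensus peaks belonged to the 6 genes: 3 to Hnf4a, 6 to Hnf4g, 6 to Foxa1, 2 to Foxa2, 3 to Foxa3 and 15 to Onecut2. The libraries were made from small-intestinal organoids, three-dimensional cultures of gut epithelium, of C57BL/6JRj mice, and the comparison was of age. The young group held 3 libraries of animals of 2 to 3 months and the aged group 3 libraries of animals of 20 to 22 months, with no treatment or genetic change named for either. All cultures were 3 to 5 weeks old. In both groups replicate 1 was taken at passage 4, replicate 2 at passage 3 and replicate 3 at passage 2. Whether each library of an age had a mouse of its own is not said in the labels, so the p-values measure the spread between these libraries, which may be technical.

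HNF4A and HNF4G are nuclear receptors that bind DNA as dimers and hold enterocyte genes of lipid handling and the brush border open. FOXA1, FOXA2 and FOXA3 are forkhead proteins known as pioneer factors, because they can bind their sites in closed chromatin. In the gut they are known for roles in goblet and hormone-producing cells. ONECUT2 combines a cut domain with a homeodomain and belongs to the family of HNF6. In the intestine it has been tied to M cells, the antigen-sampling cells over lymphoid follicles, and to regional gene programmes. These factors regulate one another in liver, pancreas and gut.

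Promoter sequences are shown first because the 6 promoter peaks are the strongest or among the strongest peaks of their genes. RefSeq (GRCm38.p6) windows of 250 bases before a start site were at hand for 4 of the 6 genes and were searched on both strands for the core letters of 6 factor families. HNF4 dimers were represented by the letters CAAAGTCCA. For the forkhead FOXA proteins the letters TGTTTAC were searched. The half-site of the HNF1 homeodomain was written GTTAAT here. The ONECUT proteins, including HNF6, were given the letters ATCGAT. For the intestinal CDX homeodomain proteins the letters TTTATNG were used. The zinc fingers of the GATA family were given AGATAA. The capitals in the lines here mark the matches. The pair of Hnf4a stretches shows its upstream promoter (P2; chr2:163506607-163506810, plus strand, cut off where the RefSeq gene begins) and its downstream promoter (P1; chr2:163546905-163547154, plus strand). The Foxa3 stretch (chr7:19023540-19023789, minus strand) is the whole window. The Foxa1 (chr12:57546235-57546264) and Foxa2 (chr2:148045627-148045656) stretches, both on the minus strand, are the 30 bases around a match.
Hnf4a upstream promoter: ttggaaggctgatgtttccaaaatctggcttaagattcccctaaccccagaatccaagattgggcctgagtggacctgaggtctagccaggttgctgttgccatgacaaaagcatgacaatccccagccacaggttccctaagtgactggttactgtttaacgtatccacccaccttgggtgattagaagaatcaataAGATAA
Hnf4a downstream promoter: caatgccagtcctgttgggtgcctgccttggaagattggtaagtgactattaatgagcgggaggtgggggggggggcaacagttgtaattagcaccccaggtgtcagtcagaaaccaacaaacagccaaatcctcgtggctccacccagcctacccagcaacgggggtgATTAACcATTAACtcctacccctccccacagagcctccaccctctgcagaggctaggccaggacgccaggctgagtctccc
Foxa3 promoter: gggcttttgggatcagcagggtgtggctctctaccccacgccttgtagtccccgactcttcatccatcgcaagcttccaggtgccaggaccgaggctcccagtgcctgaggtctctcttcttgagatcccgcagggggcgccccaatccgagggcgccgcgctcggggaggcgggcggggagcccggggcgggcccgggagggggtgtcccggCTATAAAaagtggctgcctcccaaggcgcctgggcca
Foxa1 site: ttatactgctttGTAAACAaagtgagggcc
Foxa2 site: ttagccttgAGATAAtATTAACtttgtgat

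The Hnf4a promoters held different letters. The upstream one had 1 GATA match 52 to 47 bases before the start at position 163506857. That start lies inside the RefSeq gene, which begins at 163506811, directly after the match. The downstream promoter had a pair of HNF1 half-sites at 81 to 76 and 74 to 69 bases before its start. The Foxa1 window held a FOXA match, on the minus strand of the gene, 141 to 135 bases before the start. A Foxa2 window held a GATA match at 183 to 178 bases next to an HNF1 half-site at 176 to 171. In the Foxa3 window the CDX match lay 37 to 31 bases before the start and runs over the letters TATAAA, the usual form of a TATA box. Among 32536 distinct RefSeq windows of 250 bases, 9.97% held the GATA letters, 6.47% the HNF1 half-site, 3.17% the FOXA letters and 9.74% the CDX letters. The exact HNF4 letters (0.387% of windows) and ONECUT letters (0.735%) were found in none of the 7 windows of the 4 genes. Other forms of these sites were not searched, so their absence is not shown. These matches describe the letters only, and binding was not measured.

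Sequencing depth was uneven in 1 library. Counts in peaks were 7278161 in young replicate 1 and 19208483 to 26093521 in the other 5. Levels are therefore given as CPM, counts scaled to a common library total with TMM factors. As a check of the labelled tissue, all 8 epithelial marker genes had a promoter peak, with summed levels of 328 to 355 CPM in young and 350 to 369 CPM in aged libraries. Of these 8 promoters 0 were called, and 2 had an unadjusted edgeR p under 0.05: the stem cell gene Olfm4, lower in every aged library (log2 -0.30, edgeR adjusted p = 0.423), and the epithelial cadherin gene Cdh1 (0.18, adjusted p = 0.498). Among all tested promoters edgeR called 1.49%, and 10.7% had an unadjusted p under 0.05. Of the immune markers reported here Cd68 had a promoter peak (log2 -0.02, edgeR adjusted p = 0.979), and Ptprc, Cd3e, Itgam and Csf1r had none. Col1a1, Pdgfra and Vim represented 3 of 6 stromal markers, with summed levels of 22.4 to 27.8 CPM in young and 25.2 to 30.3 CPM in aged libraries (smallest p: Col1a1 at log2 -0.18, edgeR adjusted p = 0.845, and Pdgfra at 0.12, adjusted p = 0.810). Of 6 endothelial and neural markers Kdr and Sox10 had a promoter peak, together at 3.32 to 4.88 CPM in young and 2.95 to 3.23 CPM in aged libraries (Kdr: log2 -0.65, edgeR adjusted p = 0.187; Sox10: 0.10, adjusted p = 0.958). Of 6 liver and lung markers 0 had one. The part of other cells in the results on the endoderm factors was not tested.

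Among the peaks of the 6 factors a single one, 7.19 kb upstream of Onecut2, passed the test of age. It fell in aged organoids to about 0.341 of its young level, while the Onecut2 promoter and the promoters of the HNF4 and FOXA genes did not pass the test. Of the 35 peaks, 33 had enough counts to be tested, and edgeR's quasi-likelihood test (adjusted p under 0.05 over all peaks tested) called 0 higher and 1 lower in aged. That is 3.03% of the tested peaks, against 1.13% called in either direction and 0.51% called lower among all 132055 tested peaks, so a single call is what the share rests on. The median log2 fold change, aged over young, was -0.02 over the 33 peaks and -0.01 over all tested peaks. The median absolute log2 fold change was 0.12 and 0.17. Of the 33 peaks 15 had a positive and 18 a negative log2 fold change. The 32 peaks that were not called ranged from -0.44 to 0.72 on the log2 scale, with edgeR adjusted p-values of 0.358 to 0.9998.

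**Figure D1:**
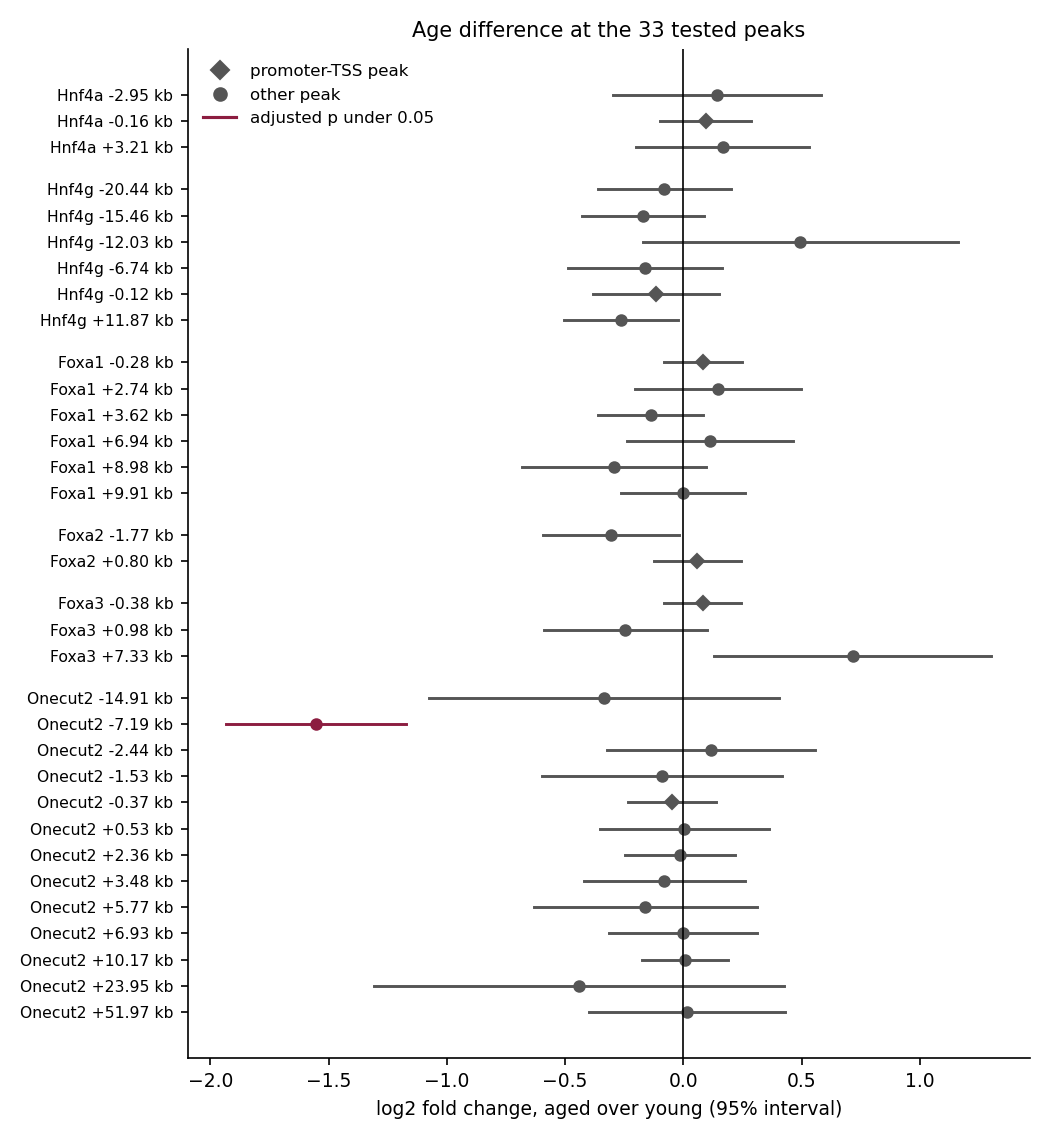
Log2 fold change of aged over young organoids (horizontal axis) with its 95% interval for each of the 33 tested peaks, grouped by gene and labelled by distance from the TSS. Diamonds are promoter-TSS peaks and the coloured bar marks the peak 7.19 kb upstream of Onecut2, the only one with an adjusted p under 0.05 (log2 -1.55).

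HNF4A is the HNF4 receptor for which the gut and liver are best known. Its upstream promoter peak (chr2:163506247-163507050), 0.16 kb from the TSS, was at 30.04, 31.5 and 37.2 CPM in young and 37.2, 32.5 and 36.5 CPM in aged replicates 1 to 3. The groups overlapped, and young replicate 1 was the lowest. The log2 fold change was 0.10 (95% interval -0.10 to 0.29; edgeR adjusted p = 0.825). This peak held 78.6 to 83.9% of the counts assigned to Hnf4a. A weaker peak in the first intron, 3.21 kb downstream, averaged 5.19 CPM (log2 0.17, edgeR adjusted p = 0.842).

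The nearest-TSS rule reaches only the upstream end of Hnf4a. A noncoding antisense gene, Hnf4aos, and the small RNA gene Gm25881 have their starts inside it, and the annotation gives them the other peaks. This includes the downstream promoter peak, which covers the Hnf4a start at position 163547155 but was given to Hnf4aos, 5.35 kb away. The annotation thus did not use that start of Hnf4a for this peak. When all peaks within the RefSeq span of each factor were taken, a choice made after seeing the data, Hnf4a had 18 peaks, 16 of them outside the rule. The downstream promoter peak (chr2:163546730-163547403) was at 22.5, 25.5 and 26.3 CPM in the young, against 25.9, 26.0 and 27.7 in the aged libraries. The groups overlapped, with young replicate 1 the lowest (log2 0.09, edgeR adjusted p = 0.853). The strongest peak of the whole gene (chr2:163552491-163552941) lay 11.0 kb from the Hnf4aos start and was classed as a transcription termination site of Hnf4a. It was at 73.1, 62.8 and 73.6 CPM in the young, against 77.7, 70.5 and 77.8 in the aged libraries. Young replicate 2 was the lowest and the groups overlapped (log2 0.12, edgeR adjusted p = 0.713). Both Hnf4a promoters were thus open at both ages, and no called change was found at either.

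**Figure D2:**
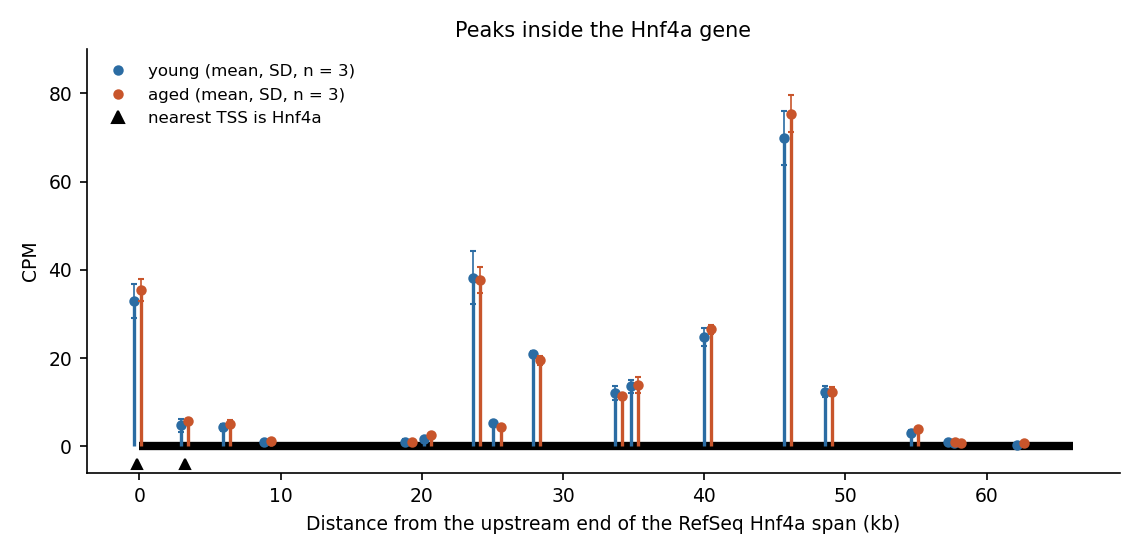
Mean level in CPM with SD (n = 3) of the 18 peaks inside the RefSeq span of Hnf4a, in young and aged organoids, against distance from the upstream end of the gene in kb. Triangles mark the peaks that the nearest-TSS rule gave to Hnf4a, and the tallest peak, at 72.6 CPM on average, is not among them.

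HNF4G is the close relative of HNF4A that shares its sites in enterocytes. Its promoter peak (chr3:3633721-3634329), 0.125 kb upstream, was at 35.1, 24.1 and 38.6 CPM in the young, against 31.1, 26.7 and 31.4 in the aged libraries. The groups overlapped and young replicate 2 was lowest. The log2 fold change was -0.12 (95% interval -0.38 to 0.15; edgeR adjusted p = 0.852). In all 6 Hnf4g peaks young replicate 3 was the highest and young replicate 2 the lowest of the young libraries. The Hnf4g interval was the widest of the 6 promoters.

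The counts that the rule gave to Hnf4g were spread over several intronic peaks and the promoter, which held 33.5 to 38.9% of them. The peak 20.4 kb upstream averaged 15.3 CPM (log2 -0.08, edgeR adjusted p = 0.916). The peak 11.9 kb downstream, in intron 5, was at 15.7, 14.7 and 18.2 CPM in the young, against 14.1, 12.8 and 13.5 in the aged libraries. All aged libraries lay below all young ones, but the difference did not pass the test (log2 -0.26, edgeR adjusted p = 0.443). A peak in exon 1 of Hnf4g by the annotation (chr3:3507690-3508727) was assigned there to another gene, Gm37000, with a TSS 38.2 kb away. This exon 1 peak was at 20.6, 22.8 and 23.3 CPM in the young, against 22.0, 20.8 and 20.1 in the aged libraries. The groups overlapped there (log2 -0.10, edgeR adjusted p = 0.834). The RefSeq span of Hnf4g begins inside this exon 1 peak, at chr3:3508030, so the promoter peak given above does not cover the upstream end of the gene. Over the RefSeq spans of the 6 genes 49 of 51 peaks were tested. EdgeR called 0 of them and 4 had an unadjusted p under 0.05, against 1.13% and 9.71% of all tested peaks. With the replicate block edgeR called 0 span peaks, against 3523 of all 132055 tested peaks. In that fit 5 span peaks had an unadjusted p under 0.05, and the share over all peaks is not given here. DESeq2 called 0 of the span peaks, with 0 at an unadjusted p under 0.05. Over all 132055 tested peaks DESeq2 called 901, and its unadjusted share is not given here. The called Onecut2 peak lies outside that gene's span.

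FOXA1 is a pioneer factor of the gut epithelium. The Foxa1 promoter peak (chr12:57545619-57547186), 0.281 kb upstream, was at 47.9, 54.5 and 54.8 CPM in the young, against 55.9, 55.0 and 56.5 in the aged libraries. Every aged library lay above every young one, by little, and young replicate 1 stood lowest. The difference did not pass the test (log2 0.08, 95% interval -0.08 to 0.25; edgeR adjusted p = 0.823). The RefSeq span of a neighbouring gene, Ttc6, overlaps the same peak, so the signal of Foxa1 and Ttc6 cannot be told apart. Downstream of Foxa1, the exon 2 peak at 3.62 kb averaged 17.1 CPM (log2 -0.14, edgeR adjusted p = 0.761). The intergenic peak at 8.98 kb was at 3.51, 3.25 and 4.11 CPM in the young, against 3.14, 2.91 and 2.83 in the aged libraries. The aged libraries were again all lower (log2 -0.29, edgeR adjusted p = 0.685).

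FOXA2 acts beside FOXA1 in the gut endoderm. Its promoter peak (chr2:148045030-148047156) was the widest of all 35 at 2127 bp and covered the starts of the RefSeq Foxa2 transcripts. It was at 32.8, 39.6 and 33.7 CPM in the young, against 37.8, 36.0 and 37.7 in the aged libraries. The groups overlapped, and young replicate 2 was the highest of the 6 (log2 0.06, 95% interval -0.12 to 0.24; edgeR adjusted p = 0.9004). The other Foxa2 peak, intergenic and 1.77 kb upstream, was at 9.97, 8.81 and 9.34 CPM in the young, against 7.59, 8.04 and 6.91 in the aged libraries. All aged libraries were lower there. The log2 fold change was -0.31 (95% interval -0.59 to -0.02), and the edgeR adjusted p was 0.469.

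FOXA3 is the FOXA protein best known from liver glucose and lipid metabolism. The peak at its promoter (chr7:19023338-19024490), 0.376 kb upstream, had the most counts of the 6, at 63.2, 55.9 and 55.5 CPM in the young, against 61.3, 60.8 and 61.5 in the aged libraries. Young replicate 1 was the highest and the groups overlapped (log2 0.08, 95% interval -0.08 to 0.24; edgeR adjusted p = 0.821). The peak also covers the RefSeq start of Sympk, a broadly used gene of messenger RNA 3' end processing, 113 bases from its far end. The annotation takes the class of the peak from Sympk, so the signal of the Foxa3 and Sympk starts cannot be told apart. A weak intron peak 7.33 kb downstream had 4, 26 and 19 counts in the young libraries, against 39, 29 and 37 in the aged, or 0.561, 0.983 and 1.002 against 1.77, 1.34 and 1.44 CPM. All aged libraries were higher, but the difference did not pass the test (log2 0.72, 95% interval 0.13 to 1.303; edgeR adjusted p = 0.358). With all libraries thinned to the depth of young replicate 1 the log2 fold change was 1.53 (edgeR adjusted p = 0.145; range over its alternatives 0.145 to 0.921).

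**Figure D3:**
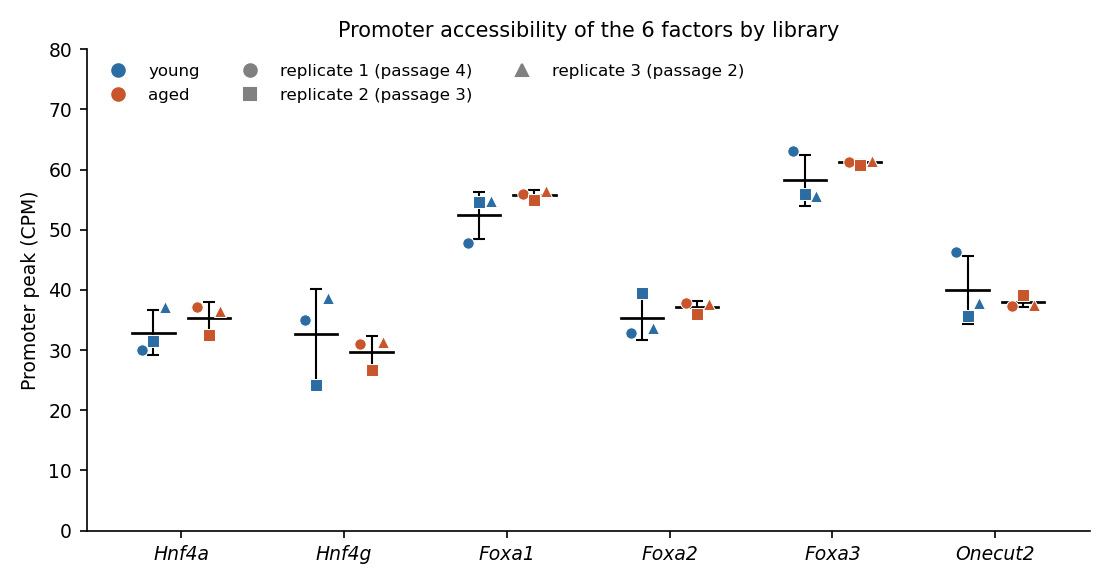
Promoter peak level in CPM for each of the 6 genes by library, with the mean (line) and SD (bar, n = 3) of young and aged organoids and the passage shown by the shape of the point. Aged and young points overlap for 5 genes, and for Foxa1 the aged libraries lie just above the young ones (55.0 to 56.5 against 47.9 to 54.8 CPM).

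The 6 promoters differed in level from gene to gene. Per kb of peak, the promoter levels over all libraries were 128.7 CPM for Onecut2, 51.8 for Foxa3, 51.2 for Hnf4g, 42.5 for Hnf4a, 34.5 for Foxa1 and 17.1 for Foxa2. The median of 11135 protein-coding promoters was 21.3 CPM per kb, and Onecut2 stood at their 99.2th percentile and Foxa2 at the 42.4th. Onecut2 was above the other promoters in every library, with 117 CPM per kb in its lowest library and 63.4 in the highest library of any other factor. Its promoter peak was the narrowest of the 6, 303 bp, and before division by width it came at 39.0 CPM, behind Foxa3 (59.7) and Foxa1 (54.1). Foxa3 and Hnf4g, and Hnf4g and Hnf4a, overlapped between libraries. Foxa1 (30.5 to 36.0 CPM per kb) lay below every Hnf4a library and Foxa2 (15.4 to 18.6) below every Foxa1 library.

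Onecut2 had the most peaks, and its promoter did not pass the test. The promoter peak (chr18:64339847-64340149), 0.366 kb upstream, was at 46.3, 35.6 and 37.9 CPM in the young, against 37.4, 39.1 and 37.6 in the aged libraries. Young replicate 1 was the highest and the groups overlapped (log2 -0.05, 95% interval -0.24 to 0.14; edgeR adjusted p = 0.926). The strongest distal peak, in the single intron 10.2 kb downstream, averaged 32.6 CPM and was 1212 bp wide (log2 0.01, edgeR adjusted p = 0.992).

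The peak that fell is intergenic, 7.19 kb upstream of the Onecut2 TSS, and 901 bp wide (chr18:64332722-64333622). Counts were 35, 183 and 160 in the young libraries, against 49, 52 and 65 in the aged. In CPM these were 4.91, 6.92 and 8.44 against 2.23, 2.40 and 2.52. Every young library lay above every aged one, and the young libraries were the more spread. The mean was 6.76 ± 1.77 CPM in young and 2.38 ± 0.149 in aged (SD, n = 3 each), a log2 fold change of -1.55 (SE 0.19; 95% interval -1.93 to -1.17; edgeR adjusted p = 1.8e-06). Within the same-numbered pairs the log2 difference was -1.14 at passage 4, -1.53 at passage 3 and -1.74 at passage 2. In bulk libraries, fewer cells with this site open and less opening per cell cannot be told apart.

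Among all called peaks this one ranked 103 of 1491 by p-value, and 193 of 673 by size among those that fell, whose median log2 fold change was -1.18. Its share of all Onecut2 counts was 3.81, 6.17 and 6.59% in the young, against 1.98, 2.08 and 2.13% in the aged libraries. The share was lower in every aged library than in any young one, so the fall of this peak was not matched by the sum of the others. The nearest tested peaks, 14.9 kb and 2.44 kb upstream, had log2 fold changes of -0.33 (95% interval -1.07 to 0.41) and 0.12 (-0.32 to 0.56). A peak 9.65 kb upstream lay between them and had too few counts to be tested (2 to 14 per library). Of the 15 Onecut2 peaks 13 were tested, and the 12 not called ranged from -0.44 to 0.12 in log2 fold change.

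**Figure D4:**
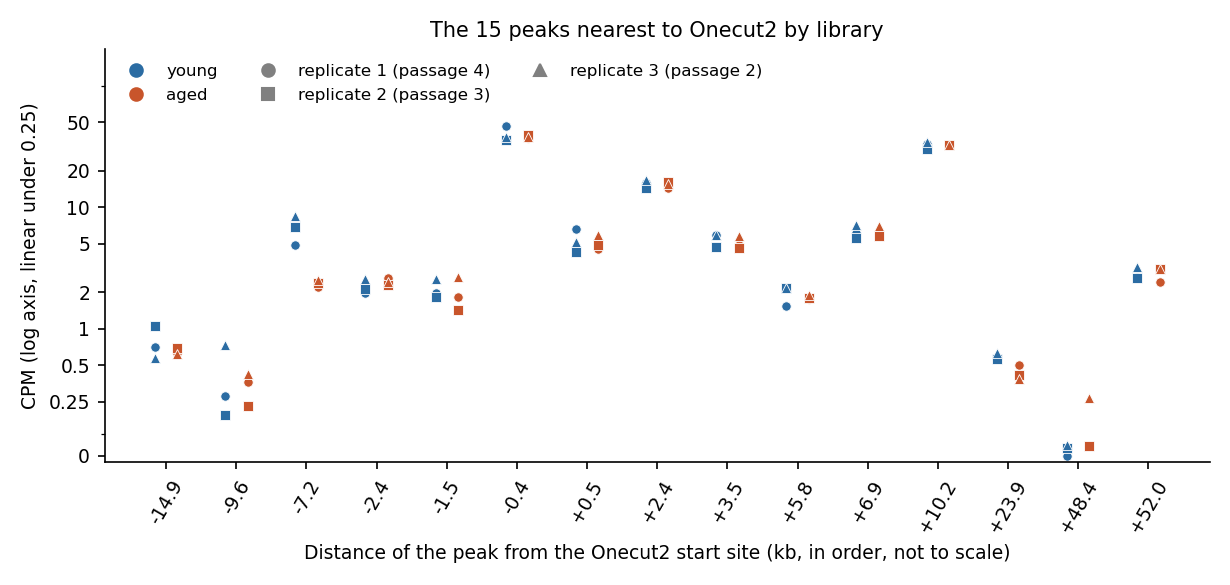
Level in CPM (log axis, linear under 0.25) of the 15 peaks nearest to Onecut2 in each library, in order of distance from the TSS. The young and aged points are well apart 7.19 kb upstream (4.91 to 8.44 against 2.23 to 2.52 CPM), and at the promoter they overlap.

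**Figure D5:**
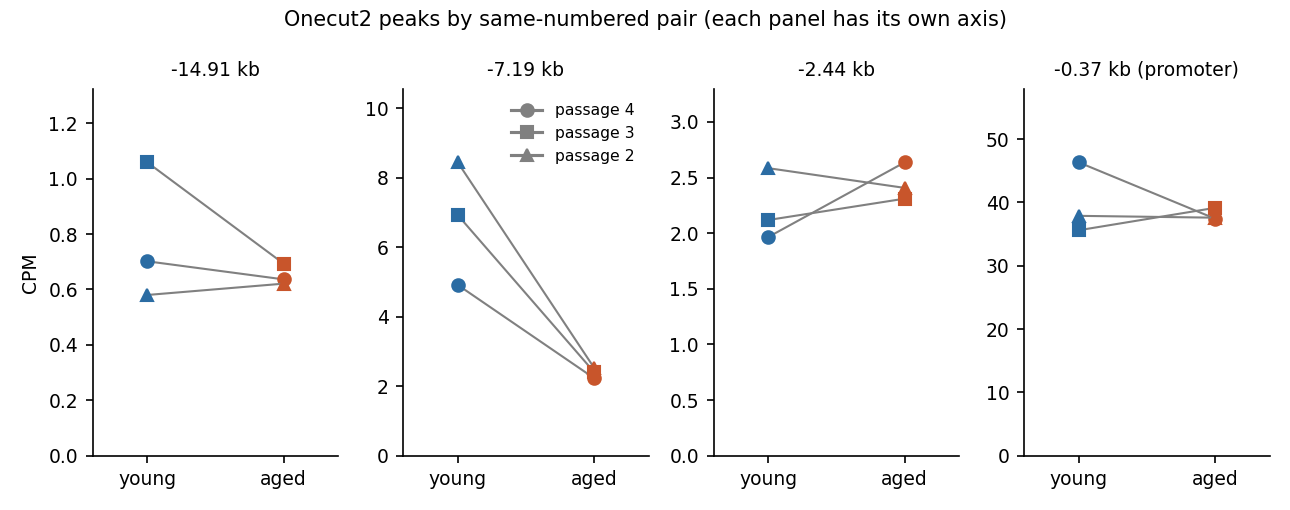
CPM of the Onecut2 promoter peak and of 3 upstream peaks, with lines joining the young and aged library of the same passage and 1 axis per panel. In the panel of the peak 7.19 kb upstream all 3 lines fall, and in each other panel lines run in both directions.

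The groups did not overlap at 7 of the 33 tested peaks, 2 with the aged libraries higher (the Foxa1 promoter and Foxa3 at 7.33 kb) and 5 with them lower. Among all tested peaks 14.7% had such groups. The lower ones were Hnf4g at 11.9 kb, Foxa1 at 8.98 kb, Foxa2 at 1.77 kb upstream and Onecut2 at 7.19 kb upstream and 23.95 kb downstream. An unadjusted edgeR p under 0.05 was found at 4 of the 33 peaks, against 9.71% of all tested peaks. They were the called peak and 3 others (Hnf4g at 11.9 kb, Foxa2 at 1.77 kb upstream and Foxa3 at 7.33 kb). None of these 3 others passed the adjustment.

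Summed over the peaks that the nearest-TSS rule gave to a gene, none of the 6 factors passed the test of age. Hnf4a summed to 36.5, 41.3 and 46.1 CPM in the young, against 46.0, 41.9 and 46.5 in the aged libraries (log2 0.10, 95% interval -0.07 to 0.27). Hnf4g summed to 92.1, 74.3 and 110.0 against 87.6, 74.9 and 85.1 CPM (log2 -0.15, -0.42 to 0.12). The groups overlapped for all 6 genes. Foxa1 had a log2 fold change of 0.01 (-0.11 to 0.14), Foxa2 of -0.02 (-0.17 to 0.13) and Foxa3 of 0.06 (-0.07 to 0.19). Onecut2 summed to 131.5, 115.5 and 132.6 CPM in the young, against 115.2, 117.8 and 121.8 in the aged libraries (log2 -0.09, -0.23 to 0.04). These intervals run from 0.745 to 1.20 in fold, so a 2-fold change of the summed signal lies outside each of them. The Hnf4a sum leaves out 16 of the 18 peaks in its RefSeq span and the Hnf4g sum 10 of 16. The bound does not cover those peaks. For Foxa3 97.4 to 99.2% of that sum lay within 1 kb of the TSS, mostly in the peak shared with the Sympk start, and the sum over 1 kb away is the 7.33 kb peak alone (log2 0.72, SE 0.29, edgeR adjusted p = 0.325 in the fit of gene sums), which the bound does not cover. Of the 6 sums edgeR called 0 (smallest adjusted p = 0.660), against 1.49% of 29775 gene names. DESeq2 called 0 of the 6 as well, against 418 of the 29775 names. An unadjusted edgeR p under 0.05 was found for 0 of the 6 sums, and the share over all gene names is not given here. Without young replicate 2 the Hnf4g sum was called lower (log2 -0.31, edgeR adjusted p = 0.0385; range over its alternatives 0.0385 to 0.981), and without young replicate 3 it was at 0.02.

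Passage, the other condition in the labels, was tested as a trend beside age. EdgeR called 0 of the 33 peaks for it (smallest adjusted p = 0.943), and 4 of all tested peaks (0.00303%). The log2 change per passage ran from -0.29 to 0.11, with 23 negative and 10 positive values. The called Onecut2 peak alone had an unadjusted edgeR p under 0.05, with -0.24 per passage. The share of all peaks under that threshold is not given here. This peak was lower at each later passage in both ages. From passage 2 to 4 it was at 8.44, 6.92 and 4.91 CPM in the young, against 2.52, 2.40 and 2.23 in the aged libraries. The young library at passage 4 is the shallowest of the 6. Passage and replicate number cannot be told apart.

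By position, 26 of the 35 peaks lay within 10 kb of their TSS, 4 beyond 20 kb and the farthest at 51.97 kb. Introns held 16 peaks (45.7%, against 42.5% of all peaks), intergenic sequence 9 (25.7% against 35.8%), promoters 6 (17.1% against 11.1%) and exons 4 (11.4% against 5.84%). The peaks of the 6 factors were stronger than most, with a median of 5.31 CPM against 1.63 over all peaks. The weakest was the exon 2 peak of Onecut2 at 48.4 kb, with 0 to 7 counts in a library, which was not tested.

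The genes that work with these factors, or under them, were read at their promoters, by lists. In each case the peak with most counts within 1 kb of the TSS stood for the gene, and edgeR and DESeq2 called 0 genes in each list. Over all tested peaks DESeq2 called 901 of 132055, and its share over all promoters is not given here. At an unadjusted edgeR p under 0.05 stood 3 of the partner regulators, 1 HNF4 target, and 0 of the secretory and 0 of the ONECUT2-linked genes. Among all 14319 promoters tested 10.7% had an unadjusted p under 0.05, edgeR called 213 (1.49%), and the median log2 fold change was 0.03. Of 18 partner regulators, such as HNF1, GATA and CDX factors and nuclear receptors, 15 were tested, with a median of -0.02. Those with the smallest p were Creb3l3, a transcription factor of lipid metabolism (log2 0.23, edgeR adjusted p = 0.314), and Rxra, a nuclear receptor partner (0.43, adjusted p = 0.341). The third under 0.05 unadjusted was Prox1, a homeodomain factor of secretory cells (-0.42, edgeR adjusted p = 0.487), named here after its value was seen. Of 18 HNF4 target genes of enterocytes 13 were tested, with a median of 0.07. Mttp, which loads lipid onto apolipoprotein B, was at -0.37 (edgeR adjusted p = 0.499) and the apolipoprotein gene Apoc3 at 0.20 (adjusted p = 0.613).

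Secretory genes that depend on FOXA factors had a median of -0.06 over 7 tested of 12. The goblet cell regulator Spdef was at 0.18 (edgeR adjusted p = 0.899) and the endocrine regulator Pax6 at 0.09 (adjusted p = 0.907). Genes linked to ONECUT2 and M cells had a median of 0.13, but only 3 of 7 were tested, among them Tnfaip2 (0.24, edgeR adjusted p = 0.766) and the RANK receptor gene Tnfrsf11a (0.13, adjusted p = 0.809).

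As a description, each promoter was set beside the 52 tested promoters of the other lists by Pearson's r of log2(CPM + 1) over the 6 libraries, which share their depth differences. The most alike were Alpi for Hnf4a (r = 0.957), Nr0b2 for Hnf4g (0.943), Apoa1 for Foxa1 (0.898), Tnfaip2 for Foxa2 (0.883), Krt18 for Foxa3 (0.824) and Lgr5 for Onecut2 (0.929). Alpi is the intestinal alkaline phosphatase of mature enterocytes and Lgr5 the marker of crypt stem cells. The ranking picks the highest of 52 values and describes these libraries only.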

How the data were processed

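ATAC-seq of 6 libraries, 3 young and 3 aged, was read from a deposited table of counts, which the authors made with featureCounts over consensus peaks per the file headers and did not normalise. The deposited annotation on GRCm38 gave each peak its class and nearest TSS. The submitters' processing notes name MACS2 2.2.7.1 and featureCounts 2.0.1, with BWA 0.7.17-r1188 and Trim Galore 0.6.4. For the Tn5 shift, the treatment of duplicates and the counting of reads or fragments, the steps are not given in the sources used here. Counts were made without molecular identifiers. The edgeR intervals and p-values include the spread between libraries as well as counting error, and the depth limits weak peaks most in young replicate 1.

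Aged was compared with young over all peaks that passed filterByExpr (minimum count 10; 132055 of 156733 peaks) by edgeR 4.0.16 in R 4.3.3, using its quasi-likelihood test (robust, with TMM factors) and Benjamini-Hochberg adjustment, with calls at an adjusted p under 0.05. Counts summed per gene name over peaks within 100 kb were fitted in the same way (29775 of 30970 names). Passage was a numeric term beside age. The scripts were tested on simulated data. Same-numbered libraries share a passage and, in the titles, a culture code of their own, whereas the descriptions give all 6 libraries a single code. For the within-pair differences and the replicate block, same-numbered libraries were treated as pairs by passage and title. The main age tests had age as their only term and did not use the pairs. The labels do not settle whether the cultures were paired in any other way. As a check, the 2 members of pairs 1, 2 and 3 deviated from their group means with correlations of 0.0738, 0.126 and 0.144, each higher than with any other number. Deviations from a mean of 3 libraries are tied to one another, so these values cannot settle the pairing.

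The members, gene lists, tests and motifs were chosen with earlier results of these data known. Each gene is described by its promoter peak (most counts within 1 kb), its strongest peak over 1 kb away, the peak with the smallest p and every called peak. Of each list the 2 genes with the smallest p are named. Lists were partner regulators, HNF4 targets, FOXA-dependent secretory genes, ONECUT2-linked genes, and markers of intestinal epithelium, immune, stromal, endothelial and neural, and liver and lung cells. Alternatives were RLE factors, library totals, no filter, at least 30 counts in 3 libraries, DESeq2 1.42.0, the replicate block, libraries thinned to 7278161 counts, other distances, and each library left out in turn. Peaks in the RefSeq spans were added after seeing the data. Sequences came from RefSeq, and none of Hnf4g or Onecut2 is shown. A marker gene of the immune list is not reported here.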

Additional observations from a re-analysis of the deposited data

How the results depend on the processing

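Of 330 values under processing alternatives, over 25 results, 316 kept their direction and side of the threshold, 11 changed sign (0 of them called), 1 became called and 2 counts moved. The Onecut2 peak 7.19 kb upstream was called in all 13 alternatives, with log2 fold changes of -1.68 to -1.36. With each library left out in turn, the count of called member peaks was 1 to 1, that of gene sums 0 to 1 and that of the passage trend 0 to 0. With the replicate block 1 member peak and 0 gene sums were called, so the pairing changed no call among the 6 genes. The block raised calls over all peaks from 1491 to 3523 and over all gene names from 445 to 1010. DESeq2 called 901 peaks and the thinned libraries 744. The 1 called gene sum, Hnf4g without young replicate 2 (-0.307), came to 0.0170 without young replicate 3; the cause was not tested. Peaks in the RefSeq spans gave 0 calls in place of 1, since the called peak lies outside the Onecut2 span. Leaving out single libraries turned the sign of the Hnf4g promoter (-0.322 to 0.0661), Hnf4g at 20.4 kb upstream (-0.278 to 0.148, with 0.00872 without aged replicate 2), the Onecut2 promoter (-0.123 to 0.0509), Onecut2 at 10.2 kb (-0.0578 to 0.0543) and the sums of Foxa1 (-0.0154 to 0.0443) and Foxa2 (-0.0544 to 0.0509). Signs also turned for Onecut2 at 10.2 kb with library totals only (-0.00393), for the Foxa1 sum from peaks over 1 kb away (-0.0459) and for the Foxa2 sum in thinned libraries (0.0258). None of the values that turned sign was called. Foxa3 at 7.33 kb, at 0.715, had a value of 1.53 in thinned libraries, not called, and was not tested under the stricter filter, and DESeq2 and the replicate block were not run for passage.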
